A study of Mus musculus with 6 samples.

Results

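The nitric oxide and cyclic GMP pathway was followed from synthase to kinase in the caudal artery, the main artery of the tail, of mice with and without Notch3, a Notch receptor of arterial smooth muscle. It was represented by 10 genes: the endothelial nitric oxide synthase gene Nos3, the soluble guanylate cyclase subunit genes Gucy1a1 and Gucy1b1, the guanylate cyclase activator gene Guca1a, the kinase genes Prkg1 and Prkg2, the kinase substrate gene Mrvi1 and the natriuretic peptide receptor genes Npr1, Npr2 and Npr3. Probe sets were taken where the platform annotation named 1 of these genes and no other. This gave 19 probe sets among the 45037 on the chip that were not controls, and all 10 genes among 18193 named genes. Of the 19 probe sets, 15 had a mean of at least 3.83 log2 units, the level filter set at the 40th percentile of all probe sets, and were tested, including at least 1 for every gene. The other 4, a pair each of Prkg2 and Npr3, were too dim.

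Arteries came from mice of 4 weeks (P28), and each RNA was pooled from several animals. The Notch3+/+ group had 3 pools, of 4, 3 and 3 mice in replicates 1 to 3, and the Notch3-/- group had 3 pools of 4 mice each. The labels call the pools biological replicates and give no treatment, strain or description of the targeted allele. The 6 arrays hold RNA of the whole dissected vessel. Values are log2 expression per probe set. All 10 smooth muscle markers and all 17 endothelial markers examined were above the level filter. Notch3 was lower in every Notch3-/- pool, at 5.87 to 6.51 against 9.94 to 10.09 on its brighter probe set, and fell by 3.72 log2 units (limma adjusted p = 0.000529).

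In arteries, nitric oxide made by the endothelial synthase diffuses into smooth muscle, where it binds the haem of soluble guanylate cyclase, a dimer of an alpha and a beta subunit. The cyclic GMP formed activates cyclic GMP-dependent protein kinase I, which lowers intracellular calcium and the calcium sensitivity of contraction, so that the vessel relaxes. Natriuretic peptides reach the same second messenger through membrane receptors that carry their own cyclase domain, while phosphodiesterases break it down.

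Of the 10 genes, Guca1a fell in Notch3-/- arteries and no other gene passed the test. Guca1a encodes guanylate cyclase activating protein 1, a calcium sensor known from photoreceptors, where it acts on the retinal membrane cyclases and not on the soluble enzyme that nitric oxide stimulates. Thus 1 of 15 tested probe sets was called lower and 0 higher with limma. Of all 27027 tested probe sets, 0.115% were called lower and 0.137% higher (0.252% in either direction). Guca1a was already known among the large falls in earlier results of these data. The count is therefore a description and not a test. For 3 of the 15 (Guca1a, Nos3 and Npr3) the unadjusted p was under 0.05, beside 11.4% of all tested probe sets. Apart from Guca1a, differences were at most 0.47 log2 units in size and adjusted p-values were 0.24 or more. The 15 probe sets had a median difference of -0.18, with 11 negative, while the median over all tested probe sets was -0.01, with 51.9% negative. Several of the 15 measure the same gene. By the brightest probe set of each of the 10 genes, the median was -0.06, with 6 negative and 4 positive. Over all 12732 tested genes the median was 0, with 50.5% negative.

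**Figure D1:**
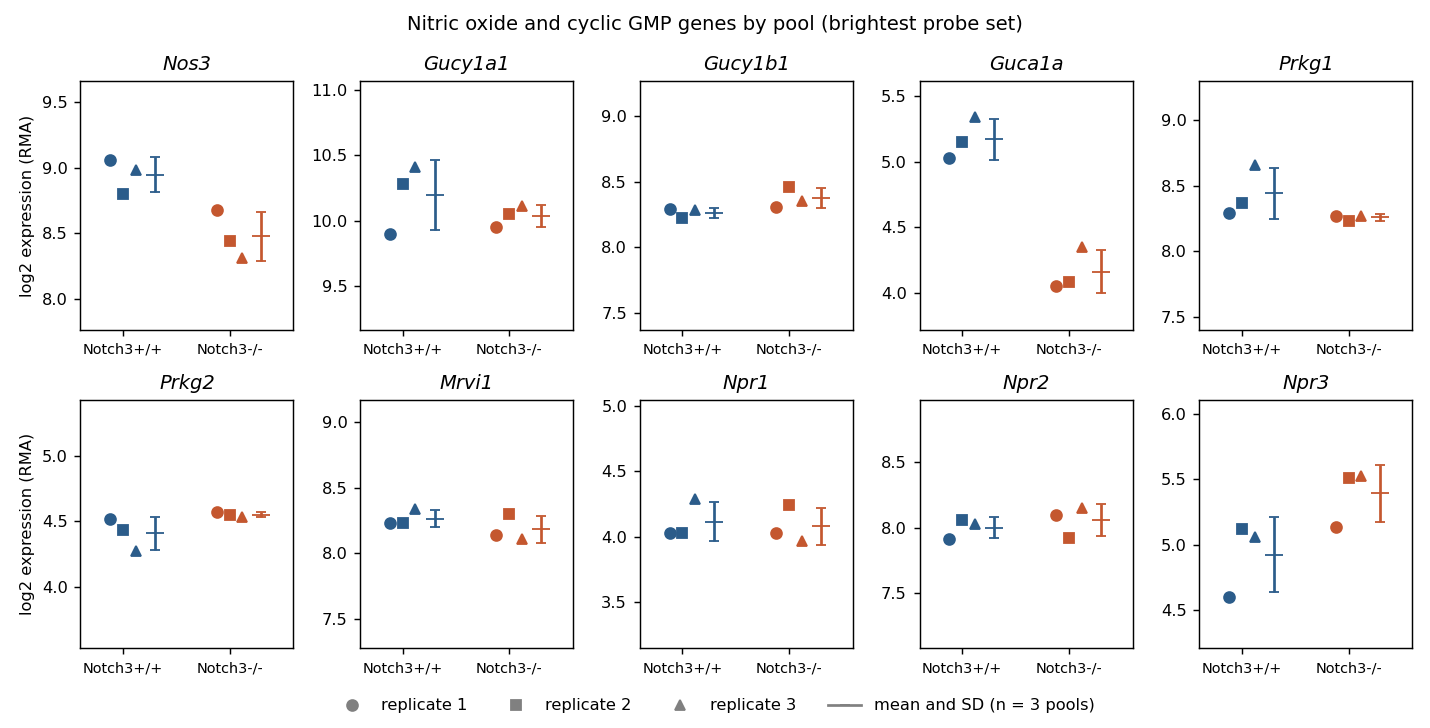
Log2 expression of the brightest probe set of each of the 10 genes in the 3 Notch3+/+ pools (blue) and the 3 Notch3-/- pools (orange), 1 symbol per pool, with mean and SD beside them; every panel spans the same number of log2 units. Guca1a shows the widest gap, with blue points at 5.03 to 5.34 and orange points at 4.05 to 4.35.

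The promoters of Guca1a, the gene that fell, and of Gucy1b1, a core subunit of the nitric oxide receptor, are shown as RefSeq gives them for mouse build GRCm38.p6. Each is the run of 250 bases before the annotated start, 5′ to 3′ on the strand of the gene. Capitals mark TGGGAA, the core bound by RBPJ, the DNA-binding partner of activated Notch receptors. Guca1a lies on the minus strand at chr17:47400607-47400856, and Gucy1b1 on the minus strand at chr3:82074712-82074961.
Guca1a: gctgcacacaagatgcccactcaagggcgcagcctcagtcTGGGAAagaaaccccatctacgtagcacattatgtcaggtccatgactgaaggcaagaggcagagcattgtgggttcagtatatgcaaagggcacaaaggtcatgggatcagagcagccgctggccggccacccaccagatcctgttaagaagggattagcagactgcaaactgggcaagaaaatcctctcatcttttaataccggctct
Gucy1b1: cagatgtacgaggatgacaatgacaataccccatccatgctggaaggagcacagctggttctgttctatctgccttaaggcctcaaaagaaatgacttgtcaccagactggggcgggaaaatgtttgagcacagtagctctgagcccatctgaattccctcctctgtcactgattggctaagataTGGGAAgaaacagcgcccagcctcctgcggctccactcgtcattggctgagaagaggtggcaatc

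The search covered both strands of 250 bases before and 50 bases after each annotated start. RefSeq promoters were matched for 8 of the 10 genes, in 11 windows. The letters occurred in 7 of these 11 windows and in 6 of the 8 genes, beside 25.6% of all 32851 windows and 28.3% of all 27025 genes with a window. Gucy1a1, Mrvi1 and Prkg1 had more than 1 window each, and a gene with more windows has more chances of a match. Gucy1a1 and Prkg1 also had a window without a match. In Guca1a the match began 210 bases before the start, and in Gucy1b1 65 bases before it. Gucy1a1, Mrvi1, Npr1 and Prkg1 also held matches, although the pools of Gucy1a1, Mrvi1 and Npr1 overlapped between genotypes on every probe set. No window of Npr2 or Npr3 held one, and Nos3 and Prkg2 had no window. A match describes the letters in a window and is not a measured binding site.

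Nos3 encodes the synthase that starts the pathway in the endothelium. It read 9.06, 8.80 and 8.98 in Notch3+/+ replicates 1 to 3 and 8.68, 8.44 and 8.31 in Notch3-/- replicates 1 to 3. Every Notch3-/- pool thus lay below every Notch3+/+ pool, an arrangement that 7.75% of all tested probe sets showed. The means were 8.95 ± 0.13 and 8.48 ± 0.19 (SD, n = 3 each), a difference of -0.47 (SE 0.12, 95% interval -0.75 to -0.19). It did not pass over all probe sets (limma adjusted p = 0.240). With array weights estimated from the data the difference was -0.50 and passed (limma adjusted p = 0.0397), under a setting that called 978 probe sets in place of 68.

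Nos3 is made mainly by endothelial cells, and in a whole vessel fewer cells of a type and less RNA per cell cannot be told apart. Other endothelial markers were therefore set beside it. The mean of the 16 others was 8.56, 8.50 and 8.62 in the Notch3+/+ pools and 8.51, 8.42 and 8.44 in the Notch3-/- pools, a difference of -0.10 with overlapping groups. None of these 16 was below the level filter, 11 had negative, 4 positive and 1 no difference, and 0 passed with limma, where 3 had an unadjusted p under 0.05. Differences ran from -0.47 for the adhesion molecule gene Pecam1, as much as Nos3, to 0.20 for Emcn. Notch3-/- pools lay below all Notch3+/+ pools for 3 of the 16 (Pecam1, Egfl7 and Esam). They lay above for 1, the receptor kinase gene Tek, at 0.09. Of all tested genes, 7.88% had the Notch3-/- pools below and 9.46% above.

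Relative to the mean of the other markers, Nos3 stood at 0.50, 0.30 and 0.36 in the Notch3+/+ pools and at 0.17, 0.02 and -0.13 in the Notch3-/- pools. The groups did not overlap on this scale either. The difference was -0.37, with a two-sided exact permutation p of 0.10, the smallest that 3 pools against 3 can give. Such a test cannot fall below 0.10 here, and Nos3 was already separated between the groups, so it decides nothing about endothelial content. The part of endothelial content in the Nos3 values was not tested.

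**Figure D2:**
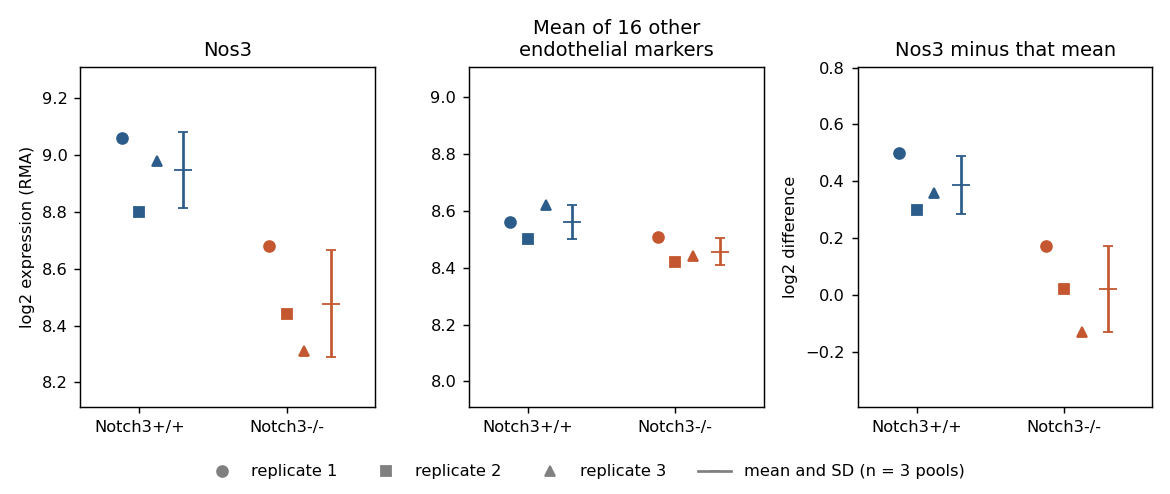
Nos3, the mean of 16 other endothelial markers, and Nos3 minus that mean, in log2 units for each pool, with mean and SD of the 3 pools of a genotype; all panels span the same number of log2 units. In the right panel the Notch3+/+ pools stand at 0.30 to 0.50, above the Notch3-/- pools at -0.13 to 0.17.

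The other synthases were measured as well. The neuronal synthase gene Nos1 differed by -0.05 (adjusted p = 0.834) on its brightest probe set, and the inducible synthase gene Nos2 by -0.23 (limma adjusted p = 0.579). Nos2 read 4.29 to 4.39 in the Notch3+/+ pools and 3.86, 4.43 and 4.01 in the Notch3-/- pools, which overlapped. Around the synthases, 16 of 20 genes for cofactor supply, substrate supply and regulation were tested, and 0 were called in either direction with limma, while 2 had an unadjusted p under 0.05. These were Nosip and the chaperone gene Hsp90aa1. Nosip, which encodes a protein that binds the endothelial synthase, gave -0.24 on its brightest probe set and 0.10 on the other. Hsp90aa1 gave 0.22 on its brightest probe set, and 0.10 and 0.04 on its other tested ones, where pools overlapped. The third gene by p was the argininosuccinate lyase gene Asl, at -0.14. The median of the 16 was -0.05, beside 0 over all 12732 tested genes by their brightest probe set.

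Soluble guanylate cyclase was measured by 3 probe sets of its alpha subunit gene Gucy1a1 and a pair for its beta subunit gene Gucy1b1. The subunit genes are immediate neighbours on chromosome 3, with 0 protein-coding genes between them. The brightest Gucy1a1 probe set read 9.90, 10.28 and 10.41 in Notch3+/+ and 9.95, 10.05 and 10.11 in Notch3-/- pools. The groups overlapped because Notch3+/+ replicate 1 lay below all other pools. The difference was -0.16 (SE 0.14, 95% interval -0.48 to 0.16, limma adjusted p = 0.674), and the other Gucy1a1 probe sets gave -0.25 and -0.30, also with overlapping pools.

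The size of the Gucy1a1 differences depended on single pools of both genotypes. Without Notch3+/+ replicate 1 the brightest probe set differed by -0.31 (limma adjusted p = 0.329), and without Notch3+/+ replicate 3 by -0.05. The others gave -0.15 and -0.14 without Notch3-/- replicate 2, from -0.25 and -0.30. Without Notch3-/- replicate 3 they gave -0.35 and -0.44, and without Notch3+/+ replicate 1 -0.38 and -0.31. The mean of 10 smooth muscle markers followed the same order of pools in Notch3+/+, at 10.47, 10.63 and 10.84, against 10.58 to 10.59 in Notch3-/- pools. None of these markers was below the level filter, and 5 of the 10 were positive. Their part in the Gucy1a1 values was not tested.

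The probe sets of Gucy1b1, the subunit that holds the haem, gave differences of opposite sign. One read 8.29, 8.22 and 8.28 in Notch3+/+ and 8.31, 8.46 and 8.35 in Notch3-/- pools, a difference of 0.11 (95% interval -0.07 to 0.29, limma adjusted p = 0.623), and 0.07 without Notch3-/- replicate 2. The other read 7.94, 7.79 and 7.82 in Notch3+/+ and 7.71, 7.62 and 7.69 in Notch3-/- pools, a difference of -0.18 (95% interval -0.36 to 0.01, limma adjusted p = 0.463). The groups did not overlap on either probe set, with Notch3-/- pools above on the first and below on the second. Their distance within an array was 0.35, 0.43 and 0.46 in Notch3+/+ and 0.60, 0.84 and 0.66 in Notch3-/- pools, a contrast noticed after the values were seen. Averaged over both probe sets, Gucy1b1 differed by -0.03. The alternative alpha subunit gene Gucy1a2 read 0.03 (limma adjusted p = 0.935).

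Guca1a read 5.03, 5.15 and 5.34 in the Notch3+/+ pools and 4.05, 4.08 and 4.35 in the Notch3-/- pools. The groups were separated by more than the spread within either. The means were 5.17 ± 0.16 and 4.16 ± 0.17 (SD, n = 3 each), so that Guca1a fell by 1.01 log2 units (SE 0.12, 95% interval -1.29 to -0.74), or 2.02-fold, with a limma adjusted p of 0.0227. The Notch3-/- level was close to the level filter of 3.83, where RMA compresses differences. The call needed all 6 arrays. Omitting Notch3+/+ replicates 1, 2 and 3 in turn gave limma adjusted p of 0.0544, 0.188 and 0.126, and omitting the 3 Notch3-/- replicates gave 0.0726, 0.10 and 0.0655.

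**Figure D3:**
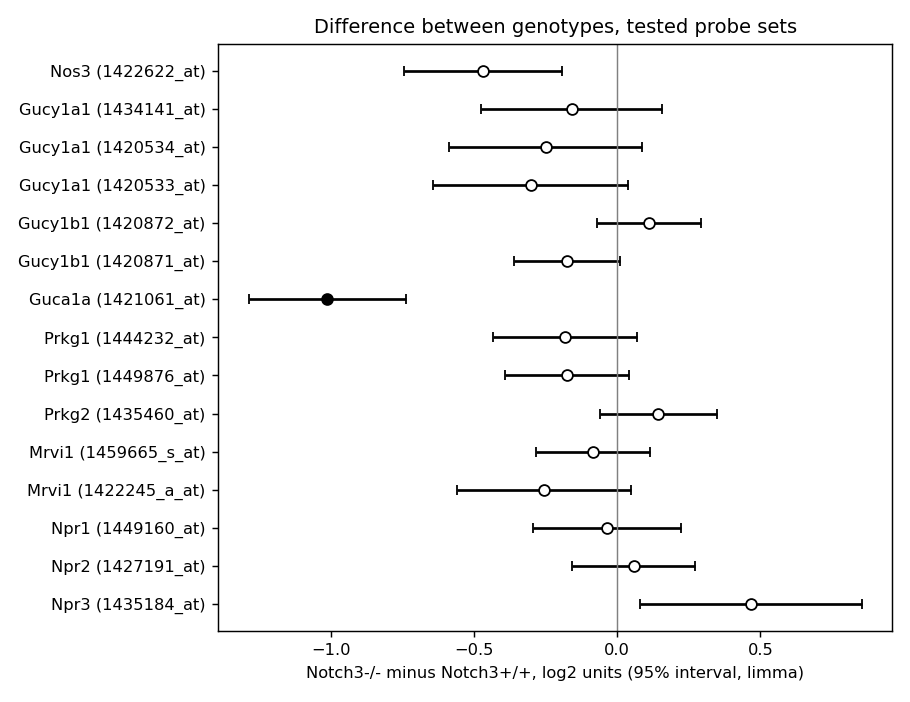
Difference between genotypes (Notch3-/- minus Notch3+/+) in log2 units for the 15 tested probe sets, with the 95% interval from limma; the filled circle marks an adjusted p under 0.05. Guca1a (-1.01) is the filled point, and the intervals of Nos3 (-0.75 to -0.19) and Npr3 (0.08 to 0.85) also leave out 0 before adjustment.

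Of the Gucy2 cyclase genes listed, Gucy2d and Gucy2f had no probe set matched to them, and those measured were dim. The retinal cyclase gene Gucy2e read 2.85 to 3.37 over the 6 arrays, below the level filter. Gucy2c and Gucy2g, and the guanylin genes Guca2a and Guca2b, were also below the filter by their means. Of 11 photoreceptor markers measured, 9 were below the filter, among them the rod transducin gene Gnat1, the arrestin gene Sag and the recoverin gene Rcvrn. The remaining pair were Crx, at 3.82 to 3.96, and Rpgrip1, which read 4.09 in Notch3+/+ replicate 2 and 6.68 to 7.78 in the other pools. The sister gene Guca1b was above the filter at 4.54 to 4.88 and differed by -0.02 (limma adjusted p = 0.964).

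Guca1a is the member gene that lies on chromosome 17, the chromosome of Notch3. By RefSeq, 357 protein-coding genes start between them. Of the 200 tested genes in that interval, 2 were called, or 1% beside 0.322% of all 12732 tested genes: the calcineurin regulator gene Rcan2 fell by 1.73 and the chloride intracellular channel gene Clic5 rose by 1.16. An unadjusted p under 0.05 was found for 10% of the 200, beside 11.9% of all tested genes. Among the 5 tested genes on either side of Guca1a, differences ran from -0.35 for Taf8 to 0.21 for Med20 and 0 passed with limma, with an unadjusted p under 0.05 for Ubr2 and Taf8. Whether the DNA around the targeted gene differs between the genotypes was not tested, because the labels give no strain or allele.

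**Figure D4:**
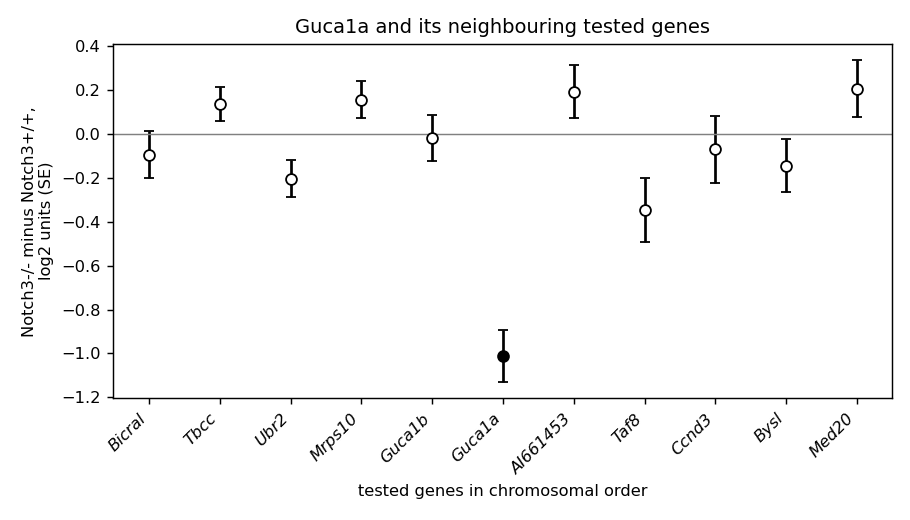
Difference between genotypes (Notch3-/- minus Notch3+/+, log2 units, with SE) for Guca1a and the 5 tested genes on each side of it, in chromosomal order and evenly spaced; the filled circle marks an adjusted p under 0.05. Guca1a stands at -1.01, while its neighbours lie between -0.35 and 0.21.

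The natriuretic peptide receptors form the second entry to cyclic GMP. Npr3 encodes the clearance receptor, which removes natriuretic peptides and has no cyclase domain. Its brightest probe set read 4.60, 5.12 and 5.06 in Notch3+/+ and 5.14, 5.51 and 5.53 in Notch3-/- pools. Every Notch3-/- pool lay above every Notch3+/+ pool, as 8.43% of tested probe sets did, but Notch3-/- replicate 1 exceeded Notch3+/+ replicate 2 by a small margin. The difference was 0.47 (SE 0.17, 95% interval 0.08 to 0.85) and did not pass (limma adjusted p = 0.372). Without Notch3+/+ replicate 1, the lowest pool, it was 0.30. The dimmer Npr3 probe sets, below the level filter, read 0.26 and -0.13.

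The receptors with a cyclase domain had smaller differences. Npr2, the receptor for C-type natriuretic peptide, read 7.91, 8.06 and 8.03 in Notch3+/+ and 8.10, 7.92 and 8.15 in Notch3-/- pools, a difference of 0.06 (95% interval -0.16 to 0.27, limma adjusted p = 0.838). It was 0.01 without Notch3+/+ replicate 1 or Notch3-/- replicate 3, and 0.12 without Notch3-/- replicate 2. Npr1, the receptor for atrial and brain natriuretic peptides, read 4.03, 4.03 and 4.29 in Notch3+/+ and 4.03, 4.24 and 3.97 in Notch3-/- pools, near the level filter, a difference of -0.04 (95% interval -0.30 to 0.22, limma adjusted p = 0.920). Its sign turned, to 0.05 and 0.02, when the third pool of Notch3+/+ or of Notch3-/- was left out, and it was -0.12 when Notch3-/- replicate 2 was. These intervals do not show that the levels were equal.

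Of 9 genes for natriuretic peptides, their processing and their receptors, 6 were tested, 0 were called in either direction with limma and 2 had an unadjusted p under 0.05. The peptide genes Nppa, Nppb and Nppc were below the level filter. Mme encodes neprilysin, a peptidase that degrades natriuretic peptides. It read 6.99, 7.08 and 6.63 in Notch3+/+ and 7.48, 7.50 and 7.31 in Notch3-/- pools, which did not overlap, and differed by 0.53 (SE 0.13, limma adjusted p = 0.226). Its second probe set gave 0.21, also without overlap. Corin, whose product activates atrial natriuretic peptide, read 0.20 (limma adjusted p = 0.742).

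Prkg1 encodes cyclic GMP-dependent protein kinase I, the main effector in smooth muscle. Its brightest probe set read 8.29, 8.37 and 8.66 in Notch3+/+ and 8.27, 8.23 and 8.27 in Notch3-/- pools. The Notch3-/- pools lay just below the lowest Notch3+/+ pool. The difference was -0.18 (SE 0.11, 95% interval -0.43 to 0.07, limma adjusted p = 0.558), and -0.07 without Notch3+/+ replicate 3, the highest pool. The second probe set gave -0.18 too, with overlapping pools and a limma adjusted p of 0.523, and -0.10 without Notch3+/+ replicate 3.

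Prkg2, the gene of the second kinase, which is known from intestine and brain, read 4.52, 4.43 and 4.27 in Notch3+/+ and 4.57, 4.55 and 4.53 in Notch3-/- pools. The groups were adjacent without overlap. The difference was 0.14 (95% interval -0.06 to 0.35, limma adjusted p = 0.572), and 0.08 without Notch3+/+ replicate 3. The 2 dimmer probe sets read 0.10 and -0.04, with overlapping pools.

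Mrvi1 encodes IRAG, the substrate through which the kinase restrains calcium release at the inositol trisphosphate receptor. Its brightest probe set read 8.23, 8.23 and 8.34 in Notch3+/+ and 8.14, 8.30 and 8.11 in Notch3-/- pools. These overlapped, with a difference of -0.08 (95% interval -0.28 to 0.12, limma adjusted p = 0.725), and -0.14 when Notch3-/- replicate 2 was left out or -0.05 when the third pool of either genotype was. The dimmer probe set read 6.59, 6.75 and 7.04 in Notch3+/+ and 6.65, 6.39 and 6.57 in Notch3-/- pools. Its difference of -0.26 (limma adjusted p = 0.513) was -0.13 without Notch3+/+ replicate 3 and -0.36 without Notch3+/+ replicate 1.

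By their brightest probe sets, the groups did not overlap for 6 of the 10 genes, 3 with Notch3-/- pools below (Nos3, Guca1a and Prkg1) and 3 with them above (Gucy1b1, Prkg2 and Npr3). Over all 12732 tested genes, 17.3% did not overlap, 7.88% with the Notch3-/- pools below and 9.46% with them above. The genes were chosen with results of these data known, so this count is a description of them and not a test.

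In the wider pathway, 84 of 93 listed genes were matched to a probe set of their own and 63 were tested. Of these, 3 fell (Guca1a, Pln and Pde1a) and 0 rose by limma on the brightest probe set, beside 0.126% of all tested genes called lower and 0.196% called higher. There were 40 negative and 22 positive differences with a median of -0.08, beside 50.5% negative and a median of 0 over all tested genes. For 16 of the 63 the unadjusted p was under 0.05, 9 lower and 7 higher, beside 11.9% of all tested genes. The list mixes activators with inhibitors of relaxation, so its median has no single functional direction. It was chosen with earlier results of these data known, so these counts are a description and not a test.

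Among 16 genes for breakdown and export of cyclic GMP, 11 were tested, with 1 call. For 4 of the 11 the unadjusted limma p was under 0.05, beside 11.9% of all tested genes. Of these, 2 were lower, Pde1a and Pde3a (-0.84), and 2 higher, Pde2a (0.30) and Pde9a (0.29). Pde1a, a phosphodiesterase activated by calcium and calmodulin that degrades cyclic GMP, read 6.15, 5.98 and 5.84 in Notch3+/+ and 5.16, 5.20 and 5.35 in Notch3-/- pools. It fell by 0.75 (SE 0.10), or 1.69-fold, and its limma adjusted p of 0.0499 was at the edge of the threshold. Pde1a was not called without any 1 of the arrays, with no level filter, with an intensity trend and robust prior for the variance, with weights by mice pooled or with a replicate block. Pde5a, the phosphodiesterase specific for cyclic GMP and the target of sildenafil, was looked at after its values were seen. Its 3 probe sets gave -0.17, 0.21 and 0.14, all with overlapping pools.

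Of 20 substrates and effectors of the kinase, 19 were tested, with 1 lower and 0 higher by limma and a median of -0.14. For 6 of the 19 the unadjusted limma p was under 0.05, 4 lower and 2 higher, beside 11.9% of all tested genes. The 2 higher were Csrp2 (0.42) and Hspb6 (0.32), and the lower ones included Rgs4 (-0.32). Pln, which encodes phospholamban, the pump inhibitor that the kinase phosphorylates, read 7.54, 7.02 and 6.91 in Notch3+/+ and 5.54, 4.86 and 4.91 in Notch3-/- pools. It fell by 2.05 (SE 0.22, limma adjusted p = 0.0182). Its other probe sets differed by -2.02 and -1.91 and did not pass (limma adjusted p = 0.0580 and 0.0706). The call was lost on omitting Notch3+/+ replicates 2 and 3 (limma adjusted p = 0.129 and 0.0938) and Notch3-/- replicates 2 and 3 (0.0924 and 0.139). Kcnma1, the pore gene of the large-conductance calcium-activated potassium channel and another kinase target, was picked out after its values were seen. Its brightest probe set differed by -0.51 (limma adjusted p = 0.416) and the next by -0.88 (limma adjusted p = 0.194). Notch3-/- pools lay below all Notch3+/+ pools on 4 of its 5 probe sets, while they overlapped on the brightest. Of these 4, 3 were below the level filter and not tested. Of all tested probe sets, 7.75% showed that arrangement, but the 5 measure 1 gene in the same arrays and are not separate results. Among the kinases and the channels gated by cyclic GMP, the channel subunit gene Cngb1 was tested beside Prkg1 and Prkg2 and read -0.10 (limma adjusted p = 0.720).

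**Figure D5:**
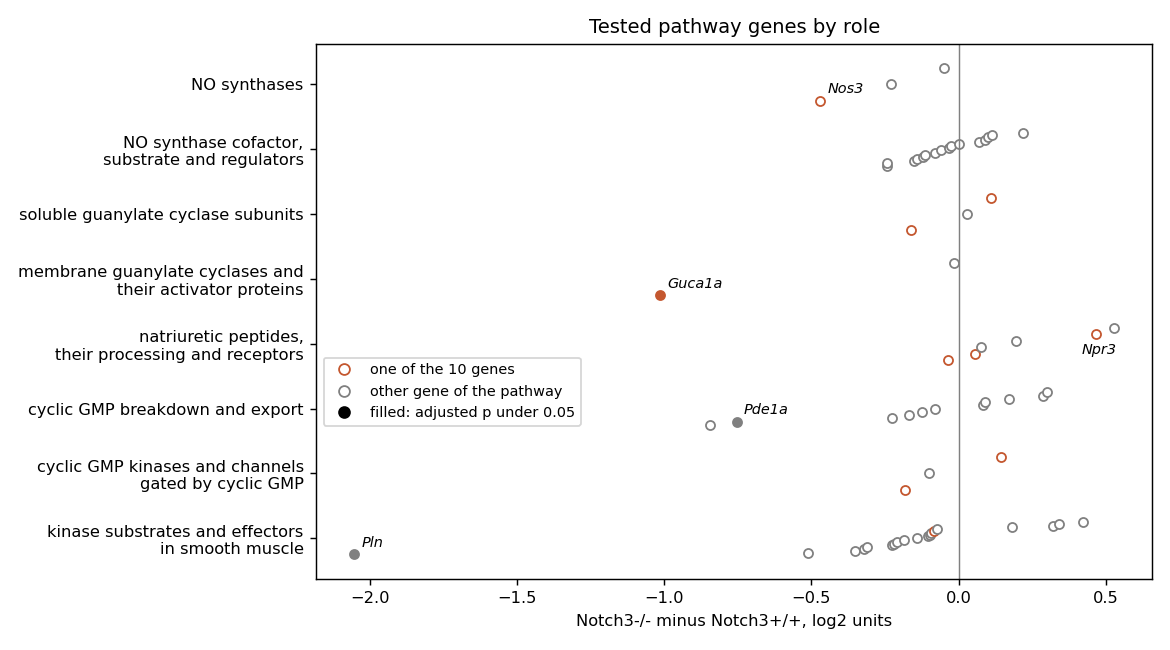
Difference between genotypes (Notch3-/- minus Notch3+/+) in log2 units for the 63 tested pathway genes by their brightest probe set, grouped by role; orange circles are the 10 genes, grey circles the rest, and filled circles have an adjusted p under 0.05. Pln (-2.05), Guca1a (-1.01) and Pde1a (-0.75) are filled, all to the left of 0.

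Levels of other cell type markers are given as pool means over the tested markers of each list, for Notch3+/+ and then Notch3-/- pools. All 12 macrophage and leukocyte markers were positive, at 6.45 to 7.19 and 7.16 to 7.56, and all 7 mast cell markers, at 6.26 to 7.29 and 7.12 to 7.72. Of the fibroblast markers 8 of 10 were positive, at 10.37 to 10.55 and 10.61 to 10.71, and Dpt, which encodes the matrix protein dermatopontin, rose by 0.58 (limma adjusted p = 0.0499). Differences were negative for 12 of 13 skeletal muscle markers, at 6.34 to 6.64 and 5.79 to 6.75, for 6 of 7 adipocyte markers, at 7.80 to 7.86 and 7.51 to 7.75, for 5 of 6 Schwann cell and nerve markers, at 8.18 to 8.30 and 8.04 to 8.21, and for 5 of 6 platelet markers, at 5.57 to 5.74 and 5.47 to 5.79. The pericyte markers, 4 of 7 of them negative, read 8.75 to 8.78 and 8.69 to 8.84. The pool means of the 2 genotypes overlapped for each of these lists except the fibroblast and adipocyte lists. Their part in the values of the pathway genes was not tested.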

How the data were processed

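Trizol-extracted, column-cleaned RNA of each pool was labelled with biotin, per the labels' protocols, and hybridised to 1 MOE430 2.0 Affymetrix array. The deposited values are log2 expression, made by the authors with RMA, per the submitters' processing notes; no version or chip definition is given in the sources used here. Values between 1.38 and 13.38 showed the scale to be log2. After removal of 64 controls from 45101 probe sets, names came from the platform annotation (34945 probe sets with 1 symbol, 932 with several, 9160 with none), and 34741 were matched by gene number through RefSeq (GRCm38.p6).

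Probe sets with a mean below the 40th percentile (3.83) were left out. The remaining 27027 entered limma 3.58.1 under R 4.3.3 (lmFit, eBayes, genotype only, two-sided), adjusted by Benjamini-Hochberg over all of them, with a threshold of 0.05. Folds are antilogs. Each gene in a list is represented by its brightest probe set. On simulated arrays with the spreads of these probe sets, 50 changes were planted at each of 1.5-, 2-, 4- and 8-fold. Of these, 32% of 1.5-fold, 72% of 2-fold and 100% of 4-fold changes were called, with 8 false calls. The adjusted cutoff depends on the number of changes planted, so these shares need not hold for the real arrays. The number of arrays, 3 per genotype, limits precision. Members, lists and settings were chosen with earlier results of these data known. All members were named; of each role list, the genes called on any probe set, or otherwise the 3 with the smallest unadjusted p; others were chosen after their values were seen. Alternatives covered the filter, variance model, normalization, weights, block, probe set choice, threshold and omission of each array.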

Additional observations from a re-analysis of the deposited data

How the results depend on the processing

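Guca1a kept its direction under every alternative that tested it and its call under the settings that kept all arrays; leaving out each array gave differences of -1.11 to -0.93 and ended the call, with adjusted p of 0.0544 to 0.188. With the level filter at the 60th percentile Guca1a was not tested and 0 member probe sets were called, as on omitting any 1 array, while estimated array weights called 2, Guca1a and Nos3. The 3 called pathway genes became 7 with estimated weights (Csrp2, Guca1a, Kcnma1, Nos3, Pde1a, Pln and Rgs4) and 0 to 1 without each array, Pln being the 1. Called probe sets numbered 68, against 978 with estimated weights, 142 at a threshold of 0.10 and 13 to 62 without each array (13 and 23 on omitting Notch3+/+ replicates 2 and 3, 37 and 17 on omitting Notch3-/- replicates 2 and 3). The cause was not tested. Of 197 values of the other member probe sets, 194 were counted as keeping direction and side of the threshold. For probe sets below the level filter, which had no main test, only direction was compared. Changes of filter or variance model and the replicate block left the differences themselves as they were, so direction could not turn there. The 2 reversals were of Npr1, at 0.05 without Notch3+/+ replicate 3 and 0.02 without Notch3-/- replicate 3, within a range of -0.12 to 0.05 over the omissions. Nos3 relative to the endothelial markers stayed between -0.53 and -0.29, and no alternative could give an exact permutation p below 0.10. It has 1 probe set, so averaging its probe sets was not run.

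Whether replicate numbers pair the pools was not settled, because 3 pools per genotype cannot decide it. Deviations from the genotype mean correlated at 0.242, 0.046 and -0.067 for same-numbered pools. For differently numbered pools the correlations ran from -0.174 to 0.143. With the replicate block, 57 probe sets and 2 pathway genes were called, Guca1a differed by -1.01 (adjusted p = 0.0213, limma), 1 member probe set was called, and Nos3 relative to the markers gave -0.37 (sign-flip exact permutation p = 0.25, its smallest value).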
